A study of Mus musculus with 18 samples.

Results

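The embryonic liver at 10.5 and 11.5 days post conception (dpc) was compared with the rest of the same-stage embryo, using 4 liver arrays and 2 arrays of embryo without liver out of 18 arrays in the series. The arrays were defined by tissue and stage. They and the gene lists were chosen with earlier results of these data known. The question was which hepatic and blood genes already mark the liver when it is still a bud or has just become a small organ. Of 155 tested genes on 10 hepatic lists, 65 were higher in liver (41.9%, against 16.6% of all genes) and 16 lower (10.3%, against 18.9%). The lower count was 3 without the 11.5 dpc remainder. Of the tested genes on 10 blood lists, 67 were higher (40.6%), 9 lower and 89 not called, and the higher count was 37 without that remainder. Secreted plasma proteins, fibrinogen chains, Hnf4a, erythroid regulators and platelet genes were among the higher genes. By the probe sets used, embryonic globins stood at the top of the range in both tissues. On the 4 lists of mature metabolism, 22.2% to 33.3% of tested genes were higher and 5.0% to 36.4% lower, against 16.6% and 18.9% of all genes.

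The liver arises when endoderm of the ventral foregut, next to the heart and the septum transversum mesenchyme, thickens and sends hepatoblasts into that mesenchyme. Hepatoblasts are the shared progenitors of hepatocytes and bile duct cells, and they secrete alpha-fetoprotein, albumin and other plasma proteins early. Blood progenitors from outside the liver then settle in it, and the fetal liver becomes the main site of red cell formation. Primitive red cells, which carry embryonic globins, come from the yolk sac and circulate through the whole embryo.

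All mice were CD-1, an outbred strain, and the labels name no allele or agent for the embryos. Each embryonic sample pooled several embryos, and RNA was measured on Affymetrix MG 430 2.0 arrays. Liver at 10.5 dpc and liver at 11.5 dpc had 2 arrays each, and the rest of the embryo had 1 array at each of these stages. Livers and remainders of 12.5 and 14.5 dpc served a later comparison. Adult female liver was used to describe levels and how far genes varied among the liver groups. The adult arrays also entered the alternative fits that took in every array of the series. The age entry of every embryonic liver reads 10.5 dpc and the titles of the remainders name liver, so tissue and stage were taken from the source names. The 2 liver arrays of a stage are labelled biological replicates, but whether their pools were of different litters is not stated. In the comparisons that pool stages, p-values reflect this spread and how far the tissue difference varied between the pooled stages. Where each stage was fitted apart, they reflect the spread of the liver pairs alone. In whole tissue, fewer cells of a type and less RNA per cell cannot be told apart.

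The deposited values came in 2 forms that follow the tissues. Median intensities were 69.7 to 73.8 on the 4 liver arrays and 93.4 and 91.9 on the 2 others. Between 1233 and 1535 probe sets read below 0 on each liver array and 0 on the others, which instead held 35 and 37 exact zeros. The 3'-to-5' ratio of the Gapdh control was 2.82 on liver 10.5 dpc replicate 1, 0.744 to 0.803 on the other livers and 1.09 on both remainders. Array form and tissue cannot be told apart in any difference between the tissues. The 6 arrays were therefore quantile-normalized, raised to a floor of 24.53 and compared in log2 with limma, with stage as a factor and 3 residual degrees of freedom. Levels below are these normalized intensities, and percentiles are ranks within an array as deposited. A gene was called when its adjusted p was under 0.05 and its difference at least 1 log2.

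Of 13882 genes tested, 2304 (16.6%) were called higher in liver and 2626 (18.9%) lower. Without the 11.5 dpc remainder the counts were 1972 and 1108. The median gene differed by -0.21, and differences are read against that shift. With other scalings the split was 2845 higher to 4297 lower by within-array ranks, 2025 to 5451 by median centring and 1632 to 7726 with no normalization. The hepatic split was 69 to 24, 52 to 25 and 47 to 37 under those scalings, and the blood split 78 to 11, 62 to 18 and 42 to 32.

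One feature of the called genes crosses the lists. Of the 2304 higher genes, 1007 (43.7%) varied by less than 1 log2 among the means of the 7 liver groups, from 10.5 dpc to adult. Of the 65 higher hepatic genes, 3 (4.62%) were that flat, and of the 67 higher blood genes, 14 (20.9%). This measure was chosen after the values were seen. Predicted genes and clone names were passed over in ranking the higher genes without overlap. The 10 largest differences, from at least 96.1-fold to at least 211-fold, belonged to Slc12a8, Slc4a8, Rgs3, Cars2, Tdrd12, Eno4, Gstt4, Ncam2, Xcl1 and Osbp2. None of them was on a hepatic or blood list. On the 10 liver arrays outside the comparison these genes stayed between the 95.9 and 99.9 percentiles, adults included, and on the 2 later remainders no higher than the 44.2 percentile. Slc4a8, an anion transporter, read 7670, 7860, 7970 and 8530 on the livers against 43.1 and 38.1. For Rgs3, a regulator of G-protein signalling, 3 other probe sets differed by -2.09 to -0.66, the opposite direction. Other tested probe sets of Slc4a8 differed by -0.53 and 1.13, those of Cars2 by -0.35 and 0.42 and that of Eno4 by 1.41. The part of array form in these differences was not tested.

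Defining markers were checked against the labels. Alb, Afp, Apoa1, Ttr and Hnf4a were higher on every liver array than on either remainder, whereas Prox1, a regulator of hepatoblast migration, was not called and differed by -0.46 (SE 0.23, limma adjusted p = 0.136). Sox2 of neural progenitors read 92.1, 92.9, 24.5 and 58.9 on the livers and 2210 and 2080 on the remainders, 36.1-fold lower in liver. Tubb3 of neurons, Col2a1 of cartilage, Myog of muscle precursors and Prrx1 of limb mesenchyme were also lower, by 3.73, 3.24, 2.08 and 4.08 log2 in size. Prrx1 still read 387 and 149 on the 10.5 dpc livers, against the floor of 24.5 on both 11.5 dpc livers. Other tested probe sets of Prrx1 differed by -3.44 to 0.45.

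Carrier proteins of plasma were the most marked hepatic group. Of 14 tested members, 10 were higher and 1 lower, with a median of 2.42 log2. Alb, the main plasma carrier protein, read 1280 and 2390 on the 10.5 dpc livers and 8250 and 7550 on the 11.5 dpc livers, against 99.4 and 88.6 in the remainders. All 4 livers lay above both remainders, a difference of 5.31 log2 (SE 0.53, limma adjusted p = 0.000594) or 39.6-fold. Afp, the fetal counterpart of albumin, was high from the start at 5710, 6510, 7150 and 7590, against 334 and 115. It lay at the 99.5 to 99.8 percentile of the livers and differed by 5.09 log2 (SE 0.38, limma adjusted p = 0.000206). Serpina6, which carries corticosteroids, showed the largest difference among these, 5.95 log2 (SE 0.79, limma adjusted p = 0.00171). Its livers read 469, 1870, 5720 and 4980 and its remainders 42.6 and 30.7, so the liver arrays themselves spanned more than a 10-fold range. Rbp4, the retinol carrier, was 43.0-fold higher and Ambp, the precursor of a heme-binding carrier and a protease inhibitor, 43.1-fold. Ttr, which carries thyroid hormone, was already in the top 1% of all 4 livers but only 3.91-fold higher, since the remainders read 698 and 1970. Apcs, an acute-phase carrier of the adult liver, was lower, at the floor on both 10.5 dpc livers.

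Promoter windows of 5 members that were higher in liver are shown here because the transcription factors that read such windows were measured on the same arrays. Each window runs from 250 bases before the start of the gene to 50 after it, as given by RefSeq for GRCm38.p6, and is written 5' to 3' on the gene's strand. Capitals mark exact matches, on either strand, to 5 motifs: the HNF1 half-site GTTAAT, the HNF4 motif CAAAGTCCA, the FOXA motif TGTTTAC, the GATA motif AGATAA and the KLF1 motif CCACACCC.
Alb, chr5:90460620-90460919, plus strand: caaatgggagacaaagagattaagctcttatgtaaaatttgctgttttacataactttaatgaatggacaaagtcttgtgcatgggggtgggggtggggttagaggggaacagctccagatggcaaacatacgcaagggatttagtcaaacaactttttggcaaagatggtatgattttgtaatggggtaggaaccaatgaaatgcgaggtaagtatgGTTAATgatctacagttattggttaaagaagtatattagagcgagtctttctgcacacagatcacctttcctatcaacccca
Apoa2, chr1:171224804-171225103, plus strand: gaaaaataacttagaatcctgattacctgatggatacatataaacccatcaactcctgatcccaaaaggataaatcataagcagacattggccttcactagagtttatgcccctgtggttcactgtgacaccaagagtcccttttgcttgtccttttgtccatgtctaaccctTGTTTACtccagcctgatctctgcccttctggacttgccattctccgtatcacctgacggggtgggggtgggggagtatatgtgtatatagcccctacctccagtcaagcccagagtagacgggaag
Fgb, chr3:83049814-83050113, minus strand: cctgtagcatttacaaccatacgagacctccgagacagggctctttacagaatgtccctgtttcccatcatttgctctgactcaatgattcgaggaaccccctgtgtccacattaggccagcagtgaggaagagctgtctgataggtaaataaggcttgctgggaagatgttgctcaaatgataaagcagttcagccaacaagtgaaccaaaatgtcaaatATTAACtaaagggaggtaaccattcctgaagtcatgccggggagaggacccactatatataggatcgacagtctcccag
Cpox, chr16:58669958-58670257, plus strand: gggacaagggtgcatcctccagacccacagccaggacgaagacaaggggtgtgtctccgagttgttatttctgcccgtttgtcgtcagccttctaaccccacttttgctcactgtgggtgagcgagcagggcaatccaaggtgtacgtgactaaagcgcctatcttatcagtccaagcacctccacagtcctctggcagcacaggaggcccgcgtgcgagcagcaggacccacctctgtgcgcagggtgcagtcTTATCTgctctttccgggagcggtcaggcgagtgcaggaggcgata
Pf4, chr5:90772185-90772484, plus strand: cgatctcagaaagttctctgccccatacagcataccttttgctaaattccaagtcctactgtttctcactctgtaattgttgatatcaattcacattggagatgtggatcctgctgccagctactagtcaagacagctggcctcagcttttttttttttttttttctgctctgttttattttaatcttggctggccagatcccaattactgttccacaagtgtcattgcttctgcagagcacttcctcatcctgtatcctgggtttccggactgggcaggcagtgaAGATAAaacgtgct
The Alb and Fgb windows held 1 HNF1 half-site each, the Apoa2 window 1 FOXA motif, and the Cpox and Pf4 windows 1 GATA motif each. Apoa2 has a 2nd listed window and Klf1 a single one, both without a match and not printed. RefSeq windows were found for 52 of the 65 higher hepatic genes and 54 of the 67 higher blood genes. The HNF1 half-site was in 12 of 65 hepatic windows (18.5%), 0 of 61 blood windows and 7.1% of all 32851 windows. The FOXA motif was in 10.8%, 1.64% and 3.65% of them, and the GATA motif in 18.5%, 16.4% and 11.2%. The KLF1 motif was in 6.15%, 1.64% and 3.56%, and the HNF4 motif in 0, 0 and 0.475%. These are letter matches, and none is evidence of binding.

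Apolipoproteins and lipid export genes were higher in 8 of 17 and lower in 2, with a median of 1.48. Apoa2, a protein of high-density lipoprotein, read 1520, 1980, 4460 and 4160 against 81 and 63.1, a 38.2-fold difference. Apoa1, the main protein of the same particle, was 15.7-fold higher and Apom, a carrier of sphingosine phosphate, 26.2-fold. Apoc4 was at the floor on all 4 livers and read 83 and 84.2 in the remainders. Apoc4 later reached the 99.5 and 99.7 percentiles in adult liver.

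The coagulation list had 22 members on the array and 16 tested. Of these 16, 11 were higher and 0 lower, with a median of 2.30. The fibrinogen chains Fga, Fgb and Fgg, which polymerise into the clot, were at the floor in both remainders. Fgb read 433, 864, 1800 and 1710 in liver, at least 42.3-fold higher. Fga was at least 41.0-fold and Fgg at least 36.1-fold higher, and all 3 chains were well above the floor on both 10.5 dpc livers. Because floored arrays share a value and add no spread, the SE and p of such genes are too small. Serpinc1 (antithrombin) was 13.4-fold and F2 (prothrombin) 4.81-fold higher. Plg, the precursor of the clot-dissolving enzyme, read 103 and 198 on the 10.5 dpc livers and 1030 and 927 on the 11.5 dpc livers, against 73.6 and 41.7 in the remainders. Of the complement and protease inhibitor list, 5 of 11 were higher and 0 lower. Serpina1b, an antitrypsin, was at least 23.9-fold higher, with livers at 138, 403, 1620 and 1320. Masp1, a protease of the lectin complement pathway, was 27.2-fold higher, but its livers of all ages stayed at or above the 91.9 percentile and its 3 other probe sets differed by 0.04 to 2.03.

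**Figure D1:**
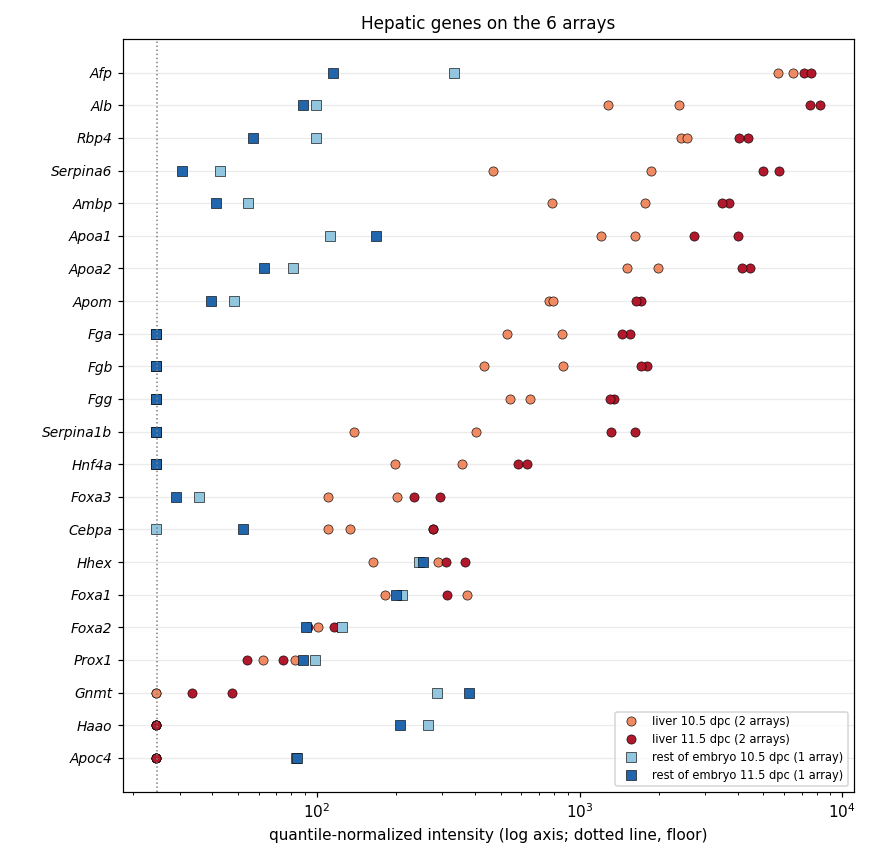
Quantile-normalized intensity (log axis) of 22 hepatic genes on each of the 6 arrays; circles are livers, squares the remainders, and the dotted line is the floor of 24.53. Plasma protein genes such as Alb (1280 to 8250 in liver, 99.4 and 88.6 in the remainders) separate fully, Hhex, Foxa1 and Foxa2 overlap, and Gnmt, Haao and Apoc4 lie higher in the remainders.

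Among transcription factors of hepatoblasts and hepatocytes, 10 of 20 were higher and 3 lower, with a median of 1.04. Hnf4a, the nuclear receptor that drives hepatocyte genes, read 199 and 356 at 10.5 dpc and 583 and 629 at 11.5 dpc, and was at the floor in both remainders. It was at least 16.4-fold higher (4.03 log2, SE 0.37, limma adjusted p = 0.000414), and its 3 other probe sets differed by 2.03 to 3.27. Foxa3, a forkhead factor of endoderm, was 6.11-fold higher with livers at 110, 201, 295 and 234. Cebpa, a regulator of hepatocyte metabolism, was 5.12-fold higher, and the bile acid receptor Nr1h4 4.31-fold. Nr5a2 and Nr1i2, nuclear receptors of liver, were 2.17-fold and 4.49-fold higher. The Nr5a2 call was close to the threshold (limma adjusted p = 0.0435), and 2 other tested probe sets of it differed by -0.98 and -0.04. Gata4 and Gata6, zinc finger factors of the bud and of its mesenchyme, were 2.93-fold and 2.77-fold higher. Creb3l3 and Ppara, regulators of fasting metabolism, were at least 57.3-fold and 20.9-fold higher, with spans of 1.11 and 1.06 log2 over the 7 liver groups. On the 10 further liver arrays they lay at 95.3 to 98.8 and 86.2 to 95.2 percentiles.

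Several hepatoblast factors were not called. Hhex, a homeobox factor of the early bud, read 164, 288, 311 and 366 against 244 and 253, a difference of 0.12 log2 (SE 0.29, limma adjusted p = 0.744). Foxa1 differed by 0.33 (SE 0.34) and Foxa2 by 0.0 (SE 0.22), the pioneer forkhead factors of foregut. Their livers and remainders overlapped. Xbp1, a regulator of secretion, differed by 0.18, which became -1.08 with no normalization. Cebpb and Onecut2 differed by 0.64 and 0.96 and were not called, and other probe sets of Onecut2 differed by -1.85 and -2.02. Onecut1, Nr0b2 and Nr1i3 were too dim on these arrays to be tested. Lhx2, Tbx3 and Zhx2 were lower in liver by 1.38, 1.33 and 1.05 log2 in size. Lhx2 serves liver mesenchyme and brain, Tbx3 hepatoblast growth and limb, and Zhx2 the later silencing of Afp. Tbx3 had 2 other tested probe sets, at -1.37 and 1.2. Without the 11.5 dpc remainder 0 factors were called lower.

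Surface and growth genes of hepatoblasts were mixed, with 5 of 19 higher (26.3%), 2 lower and a median of 0.22. The split was 5 to 4 by ranks, 2 to 5 by median centring and 1 to 6 with no normalization. Dlk1, a membrane protein used to isolate hepatoblasts, read 2970, 4200, 4940 and 4830 against 1610 and 2150, a 2.23-fold difference. Krt8 and Krt18, the keratin pair of simple epithelium, were 2.61-fold and 2.44-fold higher and Epcam, an epithelial adhesion protein, 3.18-fold. Another probe set of Epcam differed by -0.54. Igf2, the fetal growth factor, was in the top 1% everywhere and differed by 0.22 (SE 0.14). Sox9, shared by bile duct and cartilage, was 15.2-fold lower, with other probe sets between -1.6 and 1.42.

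Genes of mature metabolism formed 4 lists, read against 16.6% higher over all genes. The array held 29 urea and amino acid, 26 glucose and lipid, 34 detoxification and 17 bile and transport genes. Those too dim for the test are not in the shares. Of urea and amino acid genes 6 of 18 (33.3%) were higher and 2 lower. Of glucose and lipid genes 5 of 20 (25.0%) were higher and 1 lower, a split that turned to 5 and 6 by ranks, 2 and 7 by median centring and 2 and 10 with no normalization. Of P450 and detoxification genes 3 of 11 (27.3%) were higher and 4 lower with a median of -0.40. Of bile and transport genes 2 of 9 (22.2%) were higher and 1 lower, against 1 and 4 with no normalization. Cps1, the entry enzyme of the urea cycle, was 3.5-fold higher at 213, 116, 125 and 188 against 41.6 and 47.4. Hpd, of tyrosine breakdown, was 17.3-fold higher and Bhmt, which recycles homocysteine, at least 6.74-fold. The glucose transporter Slc2a2 read 82.1 and 82.4 at 10.5 dpc and 155 and 158 at 11.5 dpc, at least 4.62-fold higher. Gstm1, a glutathione transferase, was 4.68-fold higher. Cyp7a1, the rate-limiting enzyme of bile acid synthesis, differed by -0.40 (SE 0.20) and was not called. Gnmt and Haao, enzymes of methionine and tryptophan metabolism, were lower by 3.40 and 3.26 log2 in size, yet reached 99.9 and 97.6 percentiles in adult liver. Their remainders read 286 and 380 for Gnmt and 265 and 208 for Haao, while 2 livers for Gnmt and all 4 for Haao were at the floor. Each read below 0 on 1 liver array as deposited, a form the remainders lack. With probe sets below 0 left out, lower genes went from 2 to 0 on the urea list and from 1 to 0 among the carriers. Counts that changed by more than 1.5 times without 1 array were urea and amino acid genes (3 higher) and glucose and lipid genes (3 higher) without the 11.5 dpc remainder, and detoxification genes (1 higher) without the 10.5 dpc remainder. Higher bile and transport genes numbered 4 without the 10.5 dpc remainder, and 1 without the 11.5 dpc remainder, liver 10.5 dpc replicate 1 or either 11.5 dpc liver. The hepatic count of 16 lower genes was 9 without the 10.5 dpc remainder and 3 without the 11.5 dpc one, and 0 detoxification genes were lower without either.

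By the probe sets used, embryonic globins were abundant in both tissues, with differences under 1 log2. Hba-x, the embryonic alpha-type chain, read 9000, 9260, 8580 and 8130 in liver and 7510 and 7320 in the remainders. That is 0.24 log2 higher (SE 0.06, limma adjusted p = 0.02), short of 1 log2. Hbb-bh1, an embryonic beta-type chain, differed by -0.11 (SE 0.07), and Hbb-y, another, by -0.94 (SE 0.08, limma adjusted p = 0.000386), with livers at 5060 to 5880 and remainders at 9930 and 10400. The tissues did not overlap for Hba-x or Hbb-y, and 1 embryonic globin was called lower at 11.5 dpc alone, by ranks, by median centring and with the mean of probe sets, and 2 with no normalization. By ranks 1 was also called higher. All 3 were in the top 1% of all 6 arrays. Probe sets of Hbb-y disagreed, since others differed by -8.66 and -0.86. As deposited, the first of these read -5600 to -5390 on the livers, the lowest of all probe sets on each. In the remainders it read 13900 and 13200. The part of array form in this was not tested. Other probe sets of Hbb-bh1 differed by 0.08 and -0.96, the second at the 97.6 to 98.6 percentile of the livers. Of the adult-type globins, Hba-a2 was lower by 2.46 log2 in size with 3 of 4 livers at the floor, and Hba-a1 was not tested. Hbb-b2 differed by -0.14 (SE 0.47). Another probe set of Hbb-b2 differed by 2.26 and read 725 and 415 as deposited on the 11.5 dpc livers, against 9.29 and 58.8 in the remainders. Near-identical globin copies make these probe sets uncertain.

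The genes of red cell formation fell into 3 lists. Of erythroid regulators 11 of 26 (42.3%) were higher and 1 lower, with a median of 0.95. That split was 11 to 4 by median centring and turned to 7 and 9 with no normalization. Klf1, the factor that switches on adult globin and red cell genes, read 451 and 484 on the 10.5 dpc livers and 2690 and 2000 on the 11.5 dpc livers, against 148 and 91 in the remainders. It was 8.98-fold higher (3.17 log2, SE 0.63, limma adjusted p = 0.00754). Gata1, the master factor of the lineage, read 438, 574, 1550 and 1410 against 117 and 107, a 7.69-fold difference. Its partner Zfpm1 was 5.96-fold higher, the lymphoid and erythroid factor Ikzf1 9.01-fold, the bridging factor Lmo2 4.04-fold and the erythropoietin receptor Epor 4.4-fold. Kit, the stem cell factor receptor, differed by 0.49 (SE 0.31) and Tal1, a partner of Gata1, by 0.90 (SE 0.41), neither of them called. Nfia was lower by 1.95 log2 in size, while other tested probe sets of it differed by 0.26 and -0.13.

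Heme and iron genes had 7 of 19 higher and 0 lower. Cpox, an enzyme late in heme synthesis, read 1080, 1280, 3950 and 3630 against 166 and 51.2, a 22.9-fold difference (4.52 log2, SE 0.69, limma adjusted p = 0.003). Alas2, the first and rate-limiting enzyme in red cells, differed by only 0.19 (SE 0.32), with livers at 691, 493, 1160 and 565 and remainders at 582 and 626, which overlap. Blvrb, a reductase abundant in red cells, was 5.93-fold higher and Fech, which inserts iron into heme, 2.53-fold. Red cell membrane genes had 8 of 23 higher and 0 lower, and 5 and 5 with no normalization. Icam4, an adhesion protein of erythroblasts, read 101 and 78.6 at 10.5 dpc against 1250 and 913 at 11.5 dpc. Rhag, a Rh-complex channel, read 144, 163, 1330 and 1080, and Ermap, an erythroblast surface protein, 309, 323, 2480 and 2020. The 10.5 dpc livers of these genes were near their remainders, and the 11.5 dpc livers far above. Without the 11.5 dpc remainder the heme count fell to 2 and the membrane count to 3; without the 10.5 dpc remainder they were 13 and 15. Leaving out either 11.5 dpc liver also gave 3 membrane genes.

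**Figure D2:**
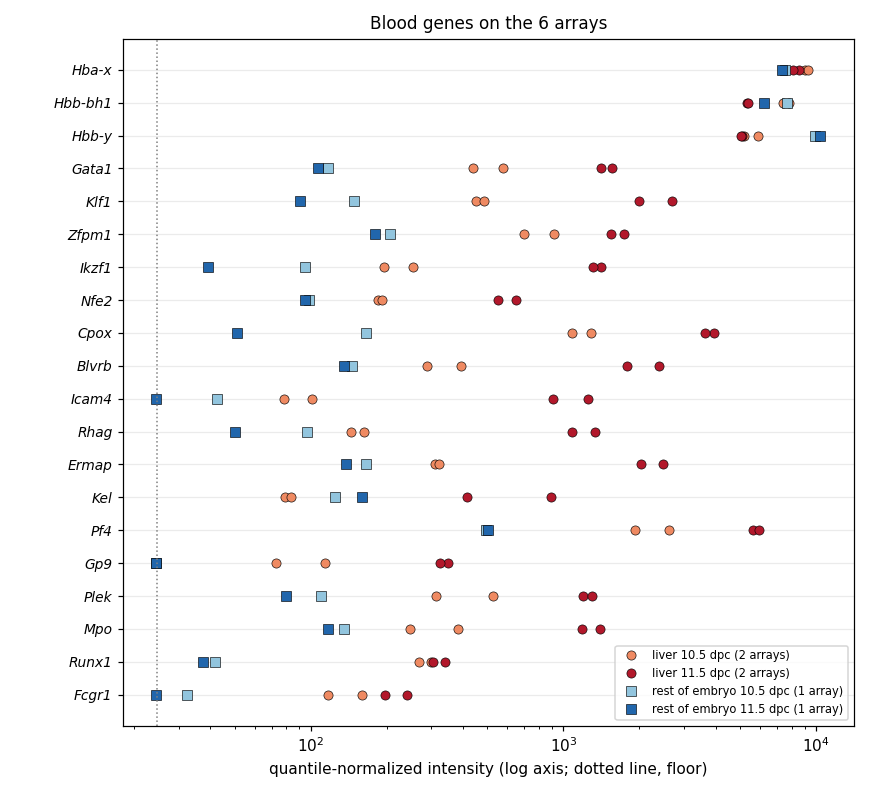
Quantile-normalized intensity (log axis) of 20 blood genes on each of the 6 arrays; circles are livers, squares the remainders, and the dotted line is the floor of 24.53. The 3 embryonic globins lie far right in both tissues, whereas Klf1 (451 to 2690 in liver, 148 and 91 in the remainders) and most other genes separate, the 11.5 dpc livers being highest.

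Platelet and myeloid genes were higher as well, by list medians more so at 11.5 dpc. The medians at 10.5 and 11.5 dpc were 0.76 and 2.21 log2 for megakaryocyte genes and 0.53 and 1.96 for macrophage genes. For granulocyte and mast cell genes they were 0.84 and 1.53, and over all genes -0.27 and -0.14. Of megakaryocyte genes 11 of 19 (57.9%, against 16.6% of all genes) were higher and 0 lower, with a median of 1.46. Pf4, a platelet granule chemokine, read 1920, 2610, 5610 and 5970 against 496 and 504, a 7.19-fold difference (2.85 log2, SE 0.31, limma adjusted p = 0.000787). Gp9, part of the platelet adhesion receptor, was at the floor in both remainders and at least 7.14-fold higher. Plek, a platelet signalling protein, was 7.61-fold and Ppbp, another platelet chemokine, 4.98-fold higher. Vwf, made by platelets and endothelium, differed by 0.0 (SE 0.38). Of macrophage genes 14 of 22 (63.6%) were higher and 0 lower. Fcgr1, an antibody receptor, read 117, 159, 196 and 241 against 32.4 and the floor of 24.5, a 6.11-fold difference. Another probe set of Fcgr1 differed by -0.42. The lysozyme Lyz2 was 4.06-fold and the complement gene C1qc 3.32-fold higher. Csf1r and Trem2, receptors of macrophages, were higher by 3.70 and 3.29 log2, but each varied by under 1 log2 among the 7 liver groups (0.62 and 0.77). Of granulocyte and mast cell genes 7 of 17 (41.2%) were higher and 0 lower. Among them was Mpo, the peroxidase of granulocyte precursors, at 246, 381, 1180 and 1390 against 136 and 117. Without the 11.5 dpc remainder the counts were 5 megakaryocyte, 6 macrophage and 4 granulocyte genes, and over all blood lists 37.

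Stem and progenitor genes went both ways, with 8 of 27 higher, 5 lower and a median of 0.41, and 8 and 8 with no normalization. Runx1, needed for definitive blood, was 7.65-fold higher at 267, 300, 341 and 304 against 41.7 and 37.3, and varied by only 0.72 log2 among the 7 liver groups. Laptm5, a lysosomal protein of blood cells, was 9.41-fold higher, while 4 other probe sets of it differed by -0.11, -0.06, 0.84 and 3.14. Myb, a progenitor factor, was 5.01-fold higher. Cd34 differed by -0.55 (SE 0.21), Flt3 was at the floor on all 4 livers, and Ptprc, the pan-leukocyte marker, was too dim for the test. Hoxa9, with another probe set at 0.0, and Hoxa10, which also pattern the trunk and limb, were lower. So were Gata2, Mecom and Erg, factors of stem cells and endothelium. Without the 11.5 dpc remainder 2 of these were lower. Lymphoid genes had 4 of 11 higher and 2 lower, and 4 and 4 with no normalization. Rag2 and Rag1, the recombinase subunits, were at least 32.1-fold and 4.68-fold higher. They lay at 90.8 to 95.5 and 68.6 to 88.7 percentiles on the 10 further liver arrays, the adult ones included. Another probe set of the B-cell factor Pax5 (2.41) differed by -0.68. Ebf1, an early B-cell factor also used in mesenchyme and neurons, was 16.2-fold lower.

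**Figure D3:**
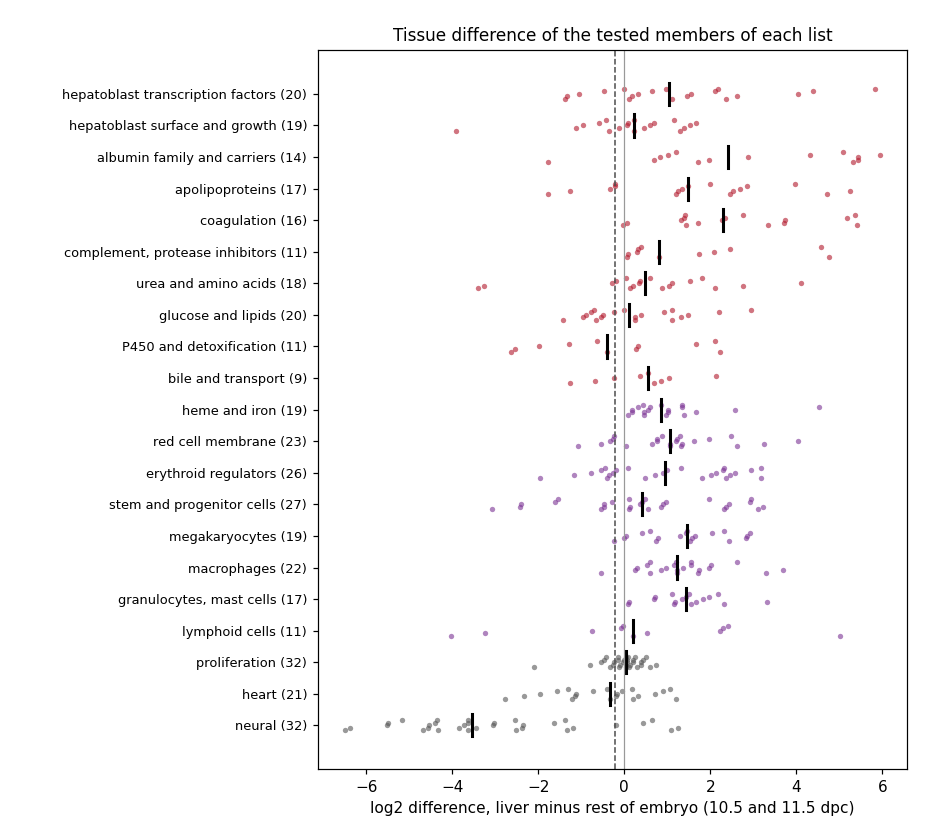
Log2 difference between liver and rest of embryo for each tested member (points) of 21 lists, with the number of members in brackets and the list median as a black bar; the dashed line is the median of all genes, -0.21. Carriers (median 2.42) and coagulation (2.30) lie farthest right, proliferation (0.04) is narrow around 0, and neural genes (-3.54) lie far left.

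Genes of other tissues gave a check on what each sample held. Some of their lists also exceeded the 16.6% higher over all genes. Yolk sac genes, shared with hepatoblasts in part, had 6 of 11 higher (54.5%) and 0 lower, with a median of 2.0. Epidermis genes had 5 of 15 higher (33.3%) and 4 lower, and gut, lung and kidney genes 5 of 19 higher (26.3%) and 5 lower. Hox genes had 2 of 26 higher and 14 lower, and skeletal muscle genes 1 of 17 higher and 8 lower. Of 32 neural genes 27 were lower in liver and 2 higher, with a median of -3.54, and 15 of 27 cartilage and limb genes were lower. Without the 10.5 and the 11.5 dpc remainder the neural count was 12 and 10, and without the latter the cartilage count was 7. Liver mesenchyme and mesothelium were split, with 8 of 27 higher and 5 lower. At 10.5 dpc alone 11 were higher and 2 lower (median 0.97), and at 11.5 dpc alone 6 and 7 (median -0.50). The lower count was 8 without the 10.5 dpc remainder and 2 without the 11.5 dpc one, and the split turned to 6 and 9 by median centring and 3 and 12 with no normalization. Ngfr and Pdgfrb, receptors of mesenchyme, were lower by 2.30 and 1.30 log2 in size. Foxf1 and Tcf21, factors of visceral mesenchyme, were 3.53-fold and 3.24-fold higher, and the lectins Colec10 and Colec11 7.57-fold and at least 7.54-fold. Endothelial genes had 5 of 28 higher (17.9%, against 16.6% of all genes) and 3 lower, and 3 and 13 with no normalization. Lyve1 and Oit3 of sinusoids were 4.36-fold and at least 12.1-fold higher, and Emcn, Sox18 and Robo4 of vessels lower by 1.26, 1.05 and 1.07 log2 in size. With 1 remainder left out, either one, 1 endothelial gene was lower. In the proliferation list 0 of 32 genes were higher and 1, Tyms, was lower, while another probe set of Tyms differed by 2.14. The lower count was 4 by ranks, with 3 higher, 10 by median centring and 23 with no normalization.

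Heart genes were abundant on the 10.5 dpc livers. The summed level of 21 tested heart genes was 31190 and 19200 on these 2 arrays, 1619 and 1604 on the 11.5 dpc livers, and 9893 and 10470 on the remainders. Myl7, an atrial myosin light chain, read 5290 and 4040, then 117 and 109, against 1390 and 1020. Nppa, an atrial hormone, read 2110 and 1520 and then the floor on both, against 414 and 518. With 10.5 dpc alone 6 heart genes were called higher and 0 lower, and with 11.5 dpc alone 0 higher and 12 lower. Beside this, the hepatic lists gave 46 higher and 13 lower genes at 10.5 dpc alone and 74 higher and 14 lower at 11.5 dpc alone. The blood lists gave 32 higher and 5 lower at the first stage and 85 higher and 10 lower at the second. Over all genes, 12.3% were called higher and 12.7% lower at 10.5 dpc, and 13.9% and 18.9% at 11.5 dpc. The part of heart tissue in the 10.5 dpc differences was not tested. Without liver 10.5 dpc replicate 1, which had the high Gapdh ratio, 69 hepatic and 68 blood genes were higher.

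The change from 10.5 to 11.5 dpc was tested as an interaction of tissue and stage. It called 0 of 13882 genes (0.0%) with limma at 2 residual degrees of freedom, where 1803 had an unadjusted p under 0.05 and the smallest adjusted p was 0.18. With all 18 arrays in the fit, 327 genes (2.36%) gained and 254 (1.83%) lost relative to the remainder. Those included 29 hepatic and 53 blood genes gaining, and 3 and 1 losing. Of the gains, 9 were coagulation genes, 7 carriers, 7 heme genes, 9 membrane genes, 12 erythroid regulators, 9 megakaryocyte and 9 macrophage genes. Of the losses, 10 were heart genes. This interaction is the liver's change minus the remainder's change. Each part is measured within arrays of 1 form, but both forms were normalized together with a common floor. The part of array form in the interaction was not tested. At 10.5 dpc the median hepatic difference was 0.41 and the median blood difference 0.37. At 11.5 dpc they were 1.18 and 1.49, while the median over all genes was -0.27 and then -0.14. Heme genes went from 0.11 to 1.33 and membrane genes from 0.20 to 1.83, while transcription factors of hepatoblasts went from 0.77 to 1.25.

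**Figure D4:**
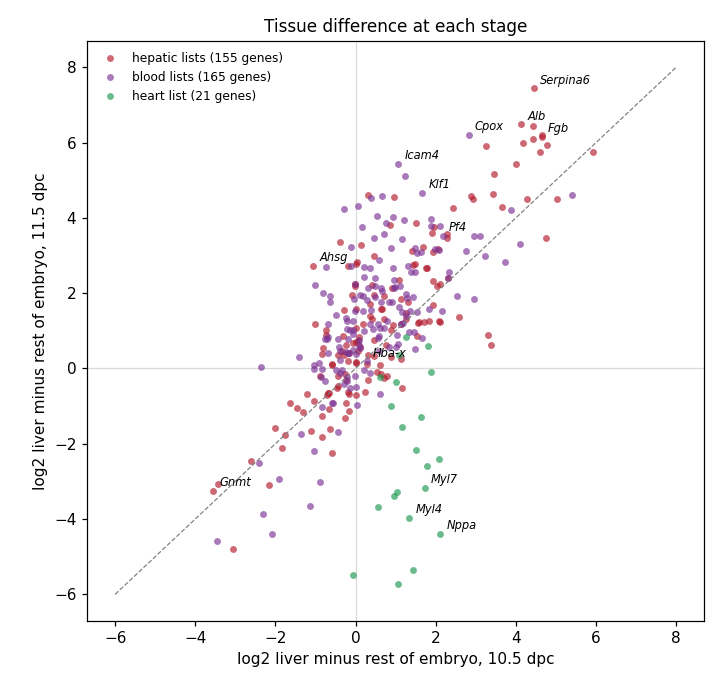
Log2 difference between liver and rest of embryo at 10.5 dpc (x axis) and 11.5 dpc (y axis) for tested members of the hepatic, blood and heart lists; the dashed diagonal marks equal differences. Most hepatic and blood genes lie above the diagonal, as do Alb (4.14 and 6.48) and Klf1 (1.66 and 4.67), and heart genes such as Nppa (2.11 and -4.40) fall below it.

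At 12.5 and 14.5 dpc the tissue difference was compared with that at the earlier stages, using 12 arrays and 6 residual degrees of freedom. It was larger for 398 of 14688 genes (2.71%) and smaller for 211 (1.44%), with 3537 at an unadjusted p under 0.05. Among the larger were 10 of 19 heme genes, 10 of 24 red cell membrane genes, 7 of 26 erythroid regulators, 7 of 20 coagulation genes and 5 of 17 complement genes. Alas2, near equal in the earlier tissues, gained 2.63 log2 (SE 0.40, limma adjusted p = 0.0115). Nfe2, a globin regulator, gained 3.29, and Kel, a red cell blood-group protein, 4.11. Pzp, a protease inhibitor, gained 4.25, and Ahsg, the carrier fetuin, 3.78. Of 20 transcription factors of hepatoblasts limma called 0 in either direction, and 3 had an unadjusted p under 0.05. Hnf4a, for example, differed by 0.03 (SE 0.48) between the periods. Afp was called smaller by 2.35 log2 in size (SE 0.47, limma adjusted p = 0.028), as the later remainders lay at 92.8 and 96.8 percentiles. Cpa3, a mast cell protease, was smaller by 4.84, with 1 later remainder at the 94.9 percentile.

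These later counts depended on single arrays. Without the 14.5 dpc remainder 18 genes were larger and 7 smaller, without the 11.5 dpc remainder 907 and 1031, and without the 10.5 dpc remainder 73 and 14. Without the 12.5 dpc remainder they were 558 and 647. Leaving out a liver gave 242 and 49 (10.5 dpc replicate 2), 198 and 35 (11.5 dpc replicate 2) and 208 and 77 (12.5 dpc replicate 1). At 14.5 dpc it gave 132 and 20 (replicate 1) and 148 and 24 (replicate 2). The other livers moved the counts less, to 369 and 169 (10.5 dpc replicate 1), 435 and 289 (11.5 dpc replicate 1) and 353 and 154 (12.5 dpc replicate 2). The hepatic count of 26 larger genes was 0 without the 10.5 or the 14.5 dpc remainder and 60 without the 11.5 dpc one. The blood count of 32 was 10, 0 and 72 in the same order. With 10.5 and 12.5 dpc left out, fewer heme, membrane and erythroid genes were larger, while the hepatic lists together had no fewer. That fit had 1 remainder array in each period.

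**Figure D5:**
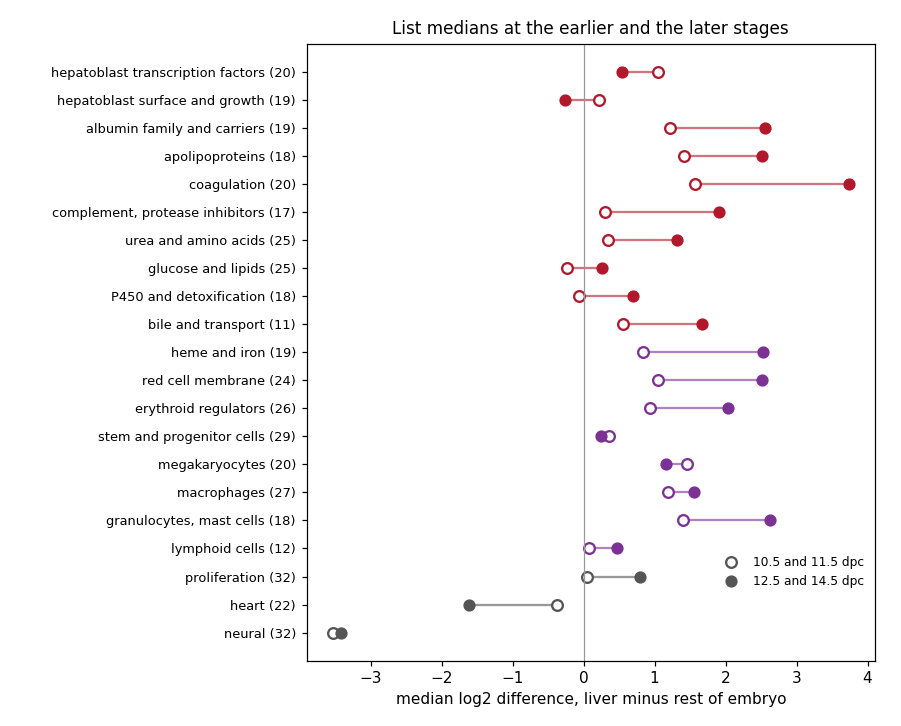
Median log2 difference between liver and rest of embryo of 21 lists at 10.5 and 11.5 dpc (open circles) and at 12.5 and 14.5 dpc (filled circles), from the fit of 12 arrays, with tested members in brackets. Coagulation goes from 1.57 to 3.74 and heme genes from 0.84 to 2.52, whereas hepatoblast transcription factors go from 1.04 to 0.54.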

How the data were processed

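The authors deposited 1 table of probe set intensities on a linear scale for 18 arrays, per the file headers, from Trizol RNA labelled as biotinylated cRNA, per the labels' protocols. The summary method and scaling are not given in the sources used here. Of 45101 probe sets, 64 are controls; 34957 carry 1 gene symbol in the platform annotation, 920 several and 9160 none, giving 18201 genes. The arrays of a fit were quantile-normalized, raised to the 20th percentile (24.53), taken to log2, and kept above the 50th percentile (78.83) on at least 2 arrays. The probe set with the highest mean of the 2 tissue means stood for a gene. Tests used limma 3.58.1 in R 4.3.3 (lmFit, eBayes with trend), two-sided, with Benjamini-Hochberg adjustment over all genes, and were tested on simulated data. A fold against a group at the floor is a lower bound.

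The arrays compared and the 31 gene lists were chosen with earlier results of these data known. Named genes came from the 10 largest non-overlapping called genes per direction, with predicted genes and clone names passed over. Each hepatic or blood list added up to 4 higher and 2 lower genes, or the member of lowest adjusted p where none was called. All hepatoblast factors and globins, up to 2 per other list, members in the top 1% of every liver array, and the leading genes of the later comparison were added. Tubb3, Col2a1, Myog, F2, Plg, Dlk1, Cyp7a1, Lmo2, Epor, Kit, Tal1, Fech, Ppbp, Vwf, C1qc, Myb, Cd34, Flt3, Ptprc, Gata2, Mecom, Erg, Foxf1, Tcf21, Ngfr, Pdgfrb, Emcn, Sox18, Robo4, Myl7 and Nppa fall outside this rule and were chosen after their values were seen, as were the promoters and motifs. Alternatives covered scaling, floor, filter, probe set choice, moderation, blocks, stages and each array left out. Replicate numbers did not pair the samples (correlation of deviations -0.027 over 13882 genes).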

Additional observations from a re-analysis of the deposited data

Results flagged for a closer look

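The 398 larger and 211 smaller tissue differences that limma called at 12.5 and 14.5 dpc (adjusted p under 0.05, at least 1 log2) included the following genes among those that the naming rule picks. Values are log2, later minus earlier. Plasma protein and metabolic genes gained: Ahsg by 3.78, Bhmt by 2.25, Apcs by 2.55, Apoc4 by 3.85, C8g by 2.51, Kng1 by 3.21, Proc by 3.15, Pzp by 4.25, Saa4 by 2.35, Serpina10 by 1.99, Gsta3 by 2.85, Gys2 by 3.31, Otc by 2.45, Prodh2 by 2.79, Slc27a2 by 1.87, Slc2a2 by 1.78, Slc2a9 by 4.18 and Ugt2b36 by 2.59. Blood genes gained too: Alas2 by 2.63, Ppox by 2.85, Uros by 2.02, Kel by 4.11, Tspo2 by 3.9, Nfe2 by 3.29, E2f2 by 4.33, Selp by 1.9, Marco by 3.08 and Camp by 2.91. The difference moved down for Afp (-2.35), Angpt1 (-1.72), Cpa3 (-4.84), Hopx (-3.89), Krt15 (-3.91), Meis1 (-1.55) and Peg3 (-1.02). Several of these were at the floor in the early livers, so their sizes are bounded by it.

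For 9 genes both livers lay on one side of the remainder at 10.5 dpc and on the other at 11.5 dpc. The difference changed by -6.51 log2 for Nppa, -6.3 for Actc1, -5.31 for Myl4, -4.9 for Myl7, -4.47 for Myl3, -4.39 for both Myh6 and Tnni1, -2.91 for Ryr2 and 3.78 for Ahsg. The first 8 encode proteins of heart or striated muscle. In the fit of the 6 arrays limma called none of these changes, with adjusted p from 0.18 to 0.276.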

How the results depend on the processing

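With the replicate block 2276 genes were higher and 2596 lower in the tissue comparison and 0 changed between 10.5 and 11.5 dpc, while the later counts went from 398 and 211 to 254 and 62. The tissue counts of 2304 higher and 2626 lower became 1410 and 1472 with a filter at the 75th percentile. Lower genes numbered 7726 with no normalization, 5451 with median centring and 4297 by ranks. Leaving out each array gave 1972 to 2323 higher and 1108 to 2723 lower genes. The 0 changes between stages became 44 gains and 68 losses with no filter, 1 and 1 with the stricter filter, 327 and 254 with all 18 arrays, and 1 loss with robust moderation. In the later comparison, larger and smaller genes numbered 739 and 847 with all 18 arrays, and 232 were larger with 10.5 and 12.5 dpc left out. Smaller genes numbered 76 with no filter and 133 with the mean of probe sets. Leaving out each array gave 18 to 907 larger and 7 to 1031 smaller genes. Xbp1 reversed from 0.18 to -1.08 with no normalization. Hepatic and blood members in the top 1% of all 4 livers numbered 8, and 3 with the mean of probe sets. The cause of these shifts was not tested. Signal near the floor and 1 remainder array per stage limit what can be seen.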
